A study of Mus musculus with 24 samples.

Results

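Adrenalectomy (ADX) is the surgical removal of the adrenal glands, which make most of the glucocorticoid hormone of a mouse. Its effect on the cochlea, the hearing organ of the inner ear, was examined after exposure to noise at night. The comparison rests on 6 of the 24 libraries in the series, chosen by their labels alone: 3 labelled night noise ADX and 3 labelled night noise sham-operated. They were compared across 16607 genes tested. The tissue of all 6 was whole cochlea, and the mice were of the strain CBA/Sca and 12 weeks old. Both groups were exposed for 1 h to noise at 100 dB SPL in a band of 6 to 12 kHz at ZT15, that is 15 h after lights-on. The comparison therefore holds no unexposed mice, and the sham-operated group also underwent surgery. Adrenalectomy removes the sources of aldosterone and of circulating adrenaline along with glucocorticoid. The labels used here do not state hormone levels, hormone replacement, the interval since surgery, or whether cochleae were pooled. They also do not say that the libraries of a group come from separate animals. The p-values measure the spread between libraries within groups, pooled over all 24 libraries, and that spread may be technical. Collection is put at 2 h after the exposure in the series design, whereas the labels of these 6 libraries give ZT23, and the conflict is unresolved.

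Glucocorticoids enter the cell and bind the glucocorticoid receptor, a transcription factor that then raises a set of target genes through response elements in DNA. Among the targets shared by many tissues are a chaperone of the receptor itself (Fkbp5), an anti-inflammatory leucine-zipper protein (Tsc22d3), a kinase that regulates ion transport (Sgk1) and a core clock gene (Per1). In mice the hormone peaks around the start of the night, and the cochlea is known to express the receptor.

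Levels are given in CPM, counts scaled to a common library size and composition, and changes as log2 ratios of ADX over sham-operated with their standard error (SE). Adjusted p-values come from edgeR's quasi-likelihood F-test with Benjamini-Hochberg adjustment across every gene tested, and 0.05 is the threshold. Gene positions are those of GRCm38. The 6 libraries held between 20409233 and 28033114 counts. All 8 genes used to check the tissue were present in all 6 libraries, from 4.87 CPM at the lowest for Tectb, a protein of the tectorial membrane, to 4967 CPM at the highest for Coch, which is made by fibrocytes of the spiral ligament. Hair cells were represented by Myo7a at 46.8 to 55.0 CPM and Otof at 77.0 to 126 CPM.

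One library stood apart from the other 5. The library labelled night noise ADX a held 7593 CPM of Gh, 1585 CPM of Prl and 465 CPM of Pomc, which encode growth hormone, prolactin and the precursor of corticotropin in the pituitary. Night noise ADX b held 8.70, 2.16 and 1.13 CPM of the same genes and ADX c held 61.4, 21.8 and 49.4 CPM. In the sham-operated libraries Gh lay between 1.46 and 6.93 CPM, Prl between 0.0365 and 0.740 CPM and Pomc between 0.328 and 0.567 CPM. All 8 pituitary markers tested, of 15 listed, had a fitted change above 0 (50.0% of all genes). Together these 8 summed to 10005 CPM in the library labelled night noise ADX a, against 80.4 to 235 CPM in the other 5. In the opposite arm Cbln3, a gene of cerebellar granule cells, measured 13.8, 33.3 and 7.36 CPM in sham-operated a, b and c against 1.92 to 2.97 CPM in ADX. The 12 cerebellar markers summed to 358 CPM in sham-operated b and to 189 to 252 CPM in the other 5 libraries. Of 15 skeletal muscle markers tested, 4 were lower (4.81% of all genes) and 0 higher (3.74%) in ADX at an unadjusted p under 0.05. The median log2 change of these markers was -1.84 with all 6 libraries and -1.67 without the library labelled night noise ADX a. Without both that library and sham-operated b it was -0.19. As a mean relative to all 24 libraries, these markers stood at 1.83 in sham-operated b and at -0.24 to -0.90 in the other 5. None of the 15 was called. The part of these transcripts in the results below was not tested. Whether the library labelled night noise ADX a and its surgery match the label could not be established from the labels used here, and every value with all 6 libraries takes that label as given. Results are therefore given with all 6 libraries and without the library labelled night noise ADX a. The fit without both that library and sham-operated b is given for part of the calls.

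**Figure D1:**
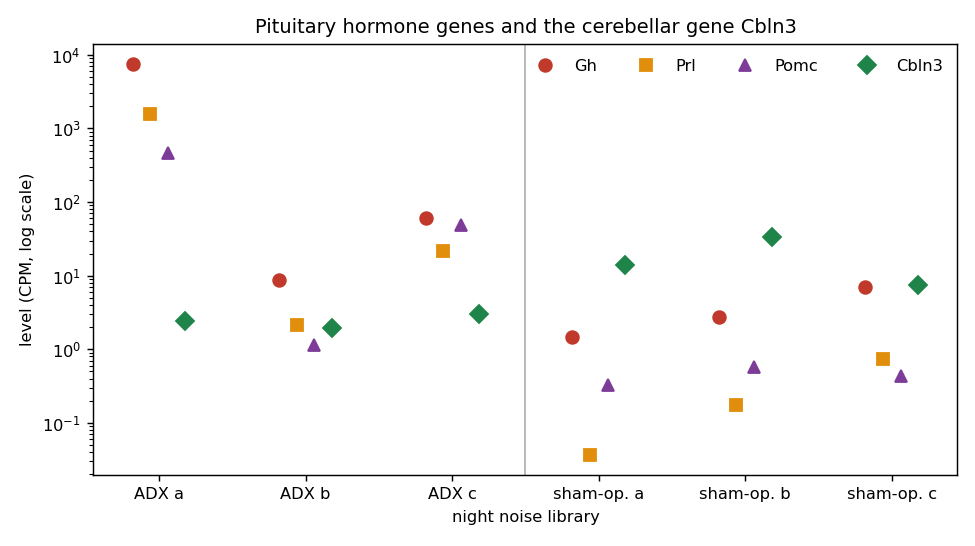
Level of 3 pituitary hormone genes and of Cbln3 in each of the 6 night noise libraries, in CPM on a log scale, with 1 marker per gene and library. The library labelled ADX a holds 7593 CPM of Gh while sham-operated b holds the most Cbln3, at 33.3 CPM.

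With all 6 libraries no gene passed the threshold in either direction (0 of 16607, 0.00%). At an unadjusted p under 0.05, 1420 genes (8.55%) differed, of which 621 were higher (3.74%) and 799 lower (4.81%) in ADX. DESeq2 called 15 genes, among them the pituitary genes Pomc and Prl, and limma voom with library weights called 1. Without the library labelled night noise ADX a, 162 of 16739 genes passed (0.968%): 55 were higher in ADX (0.329%) and 107 lower (0.639%). The 55 still held the pituitary gene Pomc (log2 change 5.85, edgeR adjusted p = 0.0286). Pomc measured 1.13 CPM in ADX b and 49.4 CPM in ADX c, against 0.328 to 0.567 CPM in sham-operated. In that fit 2541 genes (15.2%) had an unadjusted p under 0.05, 1165 higher (6.96%) and 1376 lower (8.22%). Without both that library and sham-operated b, 40 passed (0.239%), of which 4 were higher (0.0239%) and 36 lower (0.215%). Leaving out ADX b gave 7 genes, all higher, leaving out sham-operated a gave 1, lower, and leaving out any of the 3 remaining libraries gave 0. The sham-operated and ADX groups of 3 did not overlap for 827 genes with all ADX libraries below (4.98%) and 790 with all above (4.76%). For the 107 genes that were lower without it, the library labelled night noise ADX a lay within the range of the sham-operated libraries in 60, above it in 15 and below it in 32. For the 55 higher genes it lay above that range in 21, within it in 17 and below it in 17. These genes were chosen by the fit that leaves this library out. The share of all genes placed in these ways was not counted, so the placements have no background to be set against.

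**Figure D2:**
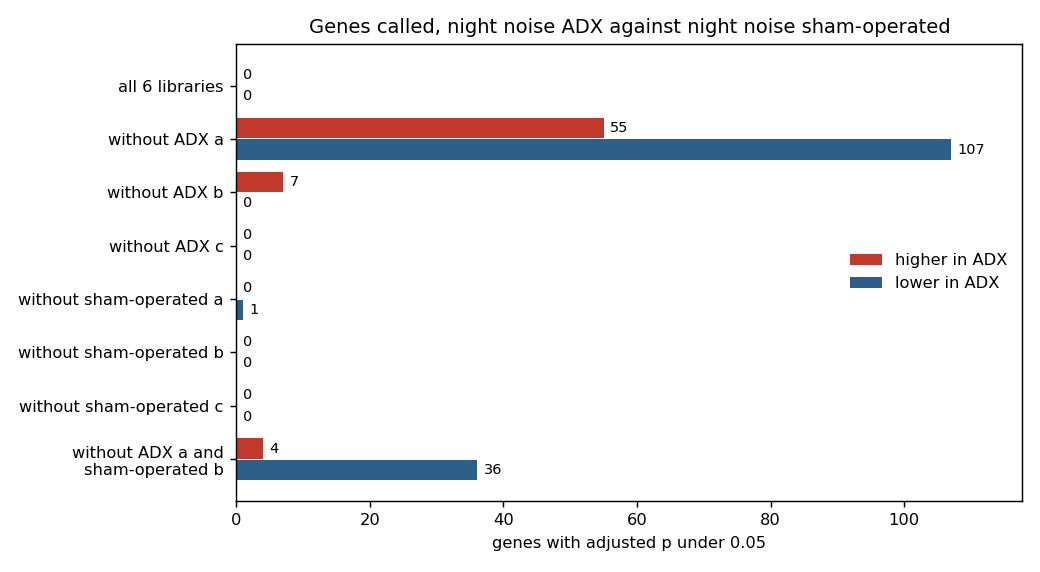
Number of genes with an adjusted p under 0.05 (edgeR), higher in ADX (red) and lower in ADX (blue), with all 6 libraries and with libraries left out. The fit without ADX a gives 55 and 107, and the fit with all 6 gives 0 and 0.

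Of 38 listed genes that glucocorticoids are known to raise, 37 were tested. ADX b and c both lay below all 3 sham-operated libraries in 28 of the 37. The library labelled night noise ADX a lay within the sham-operated range in 25, above it in 6 and below it in 6. The share of all genes placed in these ways was not counted, so these counts have no background to be set against. With all 6 libraries none was called, 33 had a fitted change below 0 against 50.0% of all genes, 18 were lower at an unadjusted p under 0.05 (4.81% of all genes) and 0 were higher. Their median log2 change was -0.36, while that of all genes tested was 0.00. Without the library labelled night noise ADX a, 16 fell (0.639% of all genes in that fit), 0 rose (0.329%), 21 did not pass, and the median was -0.60. Without sham-operated b as well, 9 fell (0.215% of all genes in that fit): Fkbp5, Tsc22d3, Per1, Hif3a, Mt1, Mt2, Sult1a1, Il1r2 and Gadd45g. The other 7 did not pass in that fit. In whole tissue, fewer cells of a type and less RNA per cell cannot be told apart.

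As a mean over the 37 genes, relative to the mean of all 24 libraries on the log2 CPM scale, the sham-operated libraries stood at 0.29, 0.57 and 0.46. The library labelled night noise ADX a stood at 0.33, inside that range, and ADX b and c stood at -0.12 and -0.39, below it. For the 16 genes that fell without it, this library lay within the sham-operated range in 13, above it in 2 and below it in 1. The fit that leaves this library out chose these 16, and the share of all genes so placed was not counted. Under the 11 alternatives that kept it, the edgeR, DESeq2 or limma adjusted p of these 16 genes ran from 0.0272 to 0.964.

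**Figure D3:**
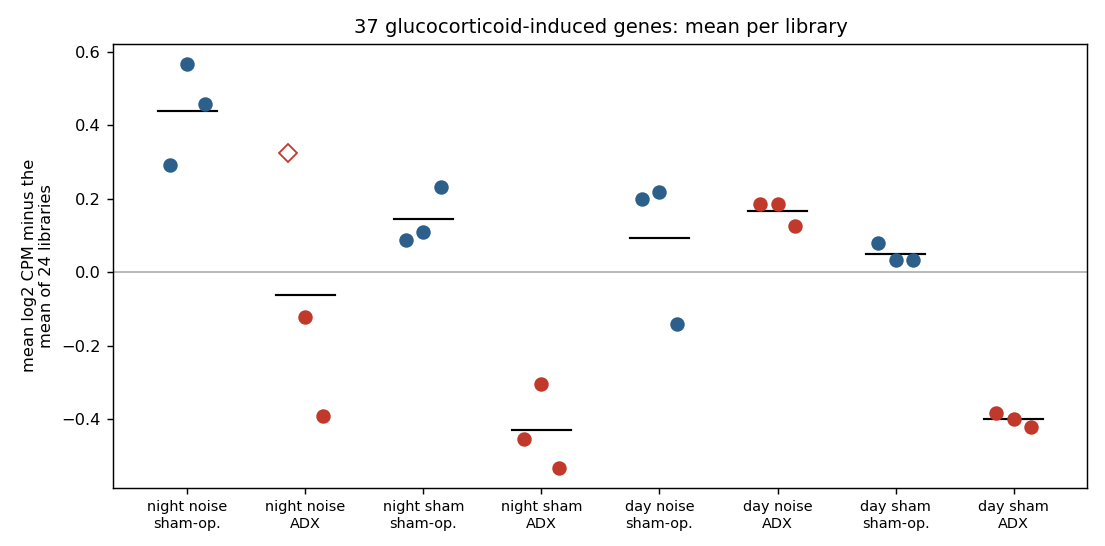
Mean of 37 glucocorticoid-induced genes in each of the 24 libraries (log2 CPM minus the mean of all libraries), with a bar at the mean of each group of 3. The open diamond is the library labelled night noise ADX a, which sits at 0.33 among sham-operated values of 0.29 to 0.57, while ADX b and c sit at -0.12 and -0.39.

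RefSeq promoter windows (GRCm38.p6, from 250 bases before to 50 after a start) were found for 15 of the 16 genes that fell, with 24 windows in all. They were searched on both strands for the full glucocorticoid response element, the palindrome bound by the receptor (the half-site AGAACA, then any 3 bases, then TGTTCT), and for the metal response elements TGCGCNC and TGCACNC, which are bound by the factor that raises metallothioneins. Of 32851 promoter windows in the table, 3 hold the full glucocorticoid element (0.00913%), 5055 hold TGCGCNC (15.4%) and 4136 hold TGCACNC (12.6%). The element stands in 1 of 6 Sgk1 windows, and metal response elements stand in both metallothionein windows. Metal response elements also stand in windows of Ddit4, Gadd45g, Glul, Hif3a, Per1 and Sgk1. The 3 windows are shown because 1 holds the full glucocorticoid element and the other two belong to the metallothioneins, which are known for their metal response elements. Capitals mark the glucocorticoid element in Sgk1 (chr10:21993640-21993939, plus strand) and the metal response elements in Mt2 (chr8:94172368-94172667, plus strand) and Mt1 (chr8:94178839-94179138, plus strand). A match on the opposite strand appears as its reverse complement. A match describes the letters and shows no binding in these samples.
Sgk1: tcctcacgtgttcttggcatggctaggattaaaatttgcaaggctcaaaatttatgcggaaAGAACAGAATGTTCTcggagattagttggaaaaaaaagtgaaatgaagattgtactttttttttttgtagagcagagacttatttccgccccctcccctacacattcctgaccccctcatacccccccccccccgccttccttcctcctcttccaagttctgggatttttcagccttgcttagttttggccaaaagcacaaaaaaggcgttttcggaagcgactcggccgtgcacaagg
Mt2: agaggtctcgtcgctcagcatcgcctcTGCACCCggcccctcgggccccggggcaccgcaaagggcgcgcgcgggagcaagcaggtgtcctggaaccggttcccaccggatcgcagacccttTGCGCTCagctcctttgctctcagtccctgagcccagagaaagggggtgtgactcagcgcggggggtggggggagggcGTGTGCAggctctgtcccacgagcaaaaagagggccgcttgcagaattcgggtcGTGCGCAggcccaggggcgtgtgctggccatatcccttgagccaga
Mt1: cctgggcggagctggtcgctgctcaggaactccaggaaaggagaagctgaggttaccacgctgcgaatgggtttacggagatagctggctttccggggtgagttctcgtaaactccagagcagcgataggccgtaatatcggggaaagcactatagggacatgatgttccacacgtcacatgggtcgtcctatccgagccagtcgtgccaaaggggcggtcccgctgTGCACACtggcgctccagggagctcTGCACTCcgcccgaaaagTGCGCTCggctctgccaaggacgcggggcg

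Fkbp5, a chaperone that holds the receptor in a state of low hormone affinity (chromosome 17, 28399094 to 28517527), measured 85.0, 101 and 132 CPM in sham-operated a, b and c. In the library labelled night noise ADX a it measured 87.6 CPM, and in ADX b and c 39.6 and 28.1 CPM. ADX b and c thus lay below all 3 sham-operated libraries, and the library labelled night noise ADX a overlapped them. The group means were 51.8 ± 31.6 CPM in ADX and 106 ± 23.7 CPM in sham-operated (SD, n = 3), a log2 change of -1.03 (SE 0.312, edgeR adjusted p = 0.385). The change without the library labelled night noise ADX a was -1.65 (SE 0.272, edgeR adjusted p = 0.00857), against adjusted p-values of 0.211 to 0.900 in the 11 alternatives that kept it.

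Hif3a, a hypoxia-inducible factor subunit and glucocorticoid target (chromosome 7, 17031507 to 17062427), had the largest log2 change of the 16 genes in the fit without the library labelled night noise ADX a, though not with all 6 libraries. It measured 5.73, 7.98 and 10.6 CPM in the sham-operated libraries, 9.5 CPM in the library labelled night noise ADX a, and 1.67 and 1.16 CPM in ADX b and c. The log2 change was -0.96 with all 6 libraries (SE 0.514, edgeR adjusted p = 0.625) and -2.53 without the library labelled night noise ADX a (SE 0.418, edgeR adjusted p = 0.00809). Zbtb16, a zinc-finger transcription factor, measured 48.1, 82.3 and 84.6 CPM in sham-operated, 62.4 CPM in the library labelled night noise ADX a, and 25.2 and 14.8 CPM in ADX b and c. Its log2 change was -1.06 with all 6 (edgeR adjusted p = 0.523) and -1.85 without that library (edgeR adjusted p = 0.0425), which was lost without sham-operated b as well (adjusted p = 0.111).

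Tsc22d3, also called GILZ, which restrains inflammatory transcription (chromosome X, 140539528 to 140600659), measured 145, 148 and 157 CPM in sham-operated. The library labelled night noise ADX a exceeded all 3 at 162 CPM, while ADX b and c measured 93.5 and 79.6 CPM. Without that library the log2 change was -0.79 (SE 0.132, edgeR adjusted p = 0.00809), against -0.42 with it (edgeR adjusted p = 0.538). Per1 (chromosome 11, 69095217 to 69109960) measured 101 to 109 CPM in sham-operated, 124 CPM in the library labelled night noise ADX a, and 59.6 and 51.3 CPM in ADX b and c. Without that library it fell by 0.93 on the log2 scale (SE 0.167, edgeR adjusted p = 0.0136), and with it the change of -0.43 did not pass (edgeR adjusted p = 0.633).

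Sgk1, whose window is printed above, measured 323, 331 and 251 CPM in sham-operated against 295, 228 and 200 CPM in the ADX libraries a, b and c. The groups overlapped through the library labelled night noise ADX a, and the change of -0.32 (SE 0.121, edgeR adjusted p = 0.482) became -0.50 without it (SE 0.112, edgeR adjusted p = 0.0391). Without sham-operated b as well the call was lost, at an edgeR adjusted p of 0.142.

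The metallothioneins Mt2 and Mt1, small proteins that bind zinc and copper and are raised by glucocorticoids as well as by metals, had the smallest adjusted p of the list without the library labelled night noise ADX a. Mt2 measured 53.6, 67.0 and 74.5 CPM in sham-operated, 56.7 CPM in that library, and 32.9 and 29.5 CPM in ADX b and c. Without that library it was 2.09-fold lower in ADX (log2 change -1.06, SE 0.139, edgeR adjusted p = 0.00362), while all 6 libraries gave -0.71 (edgeR adjusted p = 0.298). Mt1 measured 97.3, 109 and 122 CPM in sham-operated and 101, 73.5 and 61.1 CPM in the ADX libraries a, b and c. Its log2 change was -0.48 with all 6 (edgeR adjusted p = 0.299) and -0.70 without the library labelled night noise ADX a (edgeR adjusted p = 0.00362). Under the 11 alternatives that kept that library, the adjusted p of Mt2 ran from 0.0533 to 0.900 and that of Mt1 from 0.0627 to 0.900.

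Il1r2, the decoy receptor that captures interleukin 1, was the 1 gene among these 16 whose ADX libraries all lay below the sham-operated ones. It measured 6.20, 7.85 and 6.15 CPM in sham-operated, 4.32 CPM in the library labelled night noise ADX a and 1.62 CPM in both ADX b and ADX c. The change was -1.40 with all 6 libraries (SE 0.332, edgeR adjusted p = 0.298), which DESeq2 called (adjusted p = 0.0272), and -2.05 without the library labelled night noise ADX a (edgeR adjusted p = 0.00803). Glul, glutamine synthetase, and Plin4, a lipid droplet protein, reached -0.67 and -1.70 without that library, and Sult1a1, a sulfotransferase, -1.64. With all 6 libraries these changes were -0.43, -1.10 and -0.93. Cebpb, Ddit4, Gadd45g and Bcl6 encode a transcription factor, an inhibitor of mTOR signalling, a stress-induced protein and a transcriptional repressor. They fell by 0.99, 0.89, 0.73 and 0.33 on the log2 scale without the library labelled night noise ADX a. Their changes with all 6 libraries were -0.57, -0.45, -0.39 and -0.21.

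Other listed targets passed in neither fit. Pdk4, a kinase that limits glucose oxidation, measured 65.3, 80.4 and 67.7 CPM in sham-operated and 59.7, 68.4 and 57.7 CPM in ADX, which overlapped (log2 change -0.20, SE 0.132; -0.17 without the library labelled night noise ADX a). Dusp1, a phosphatase of MAP kinases, stood at 131 to 199 CPM in sham-operated and 75.9 to 157 CPM in ADX, and did not pass either with that library (-0.49) or without it (-0.74, edgeR adjusted p = 0.130). Klf9 also missed the threshold, at -0.36 and -0.60.

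**Figure D4:**
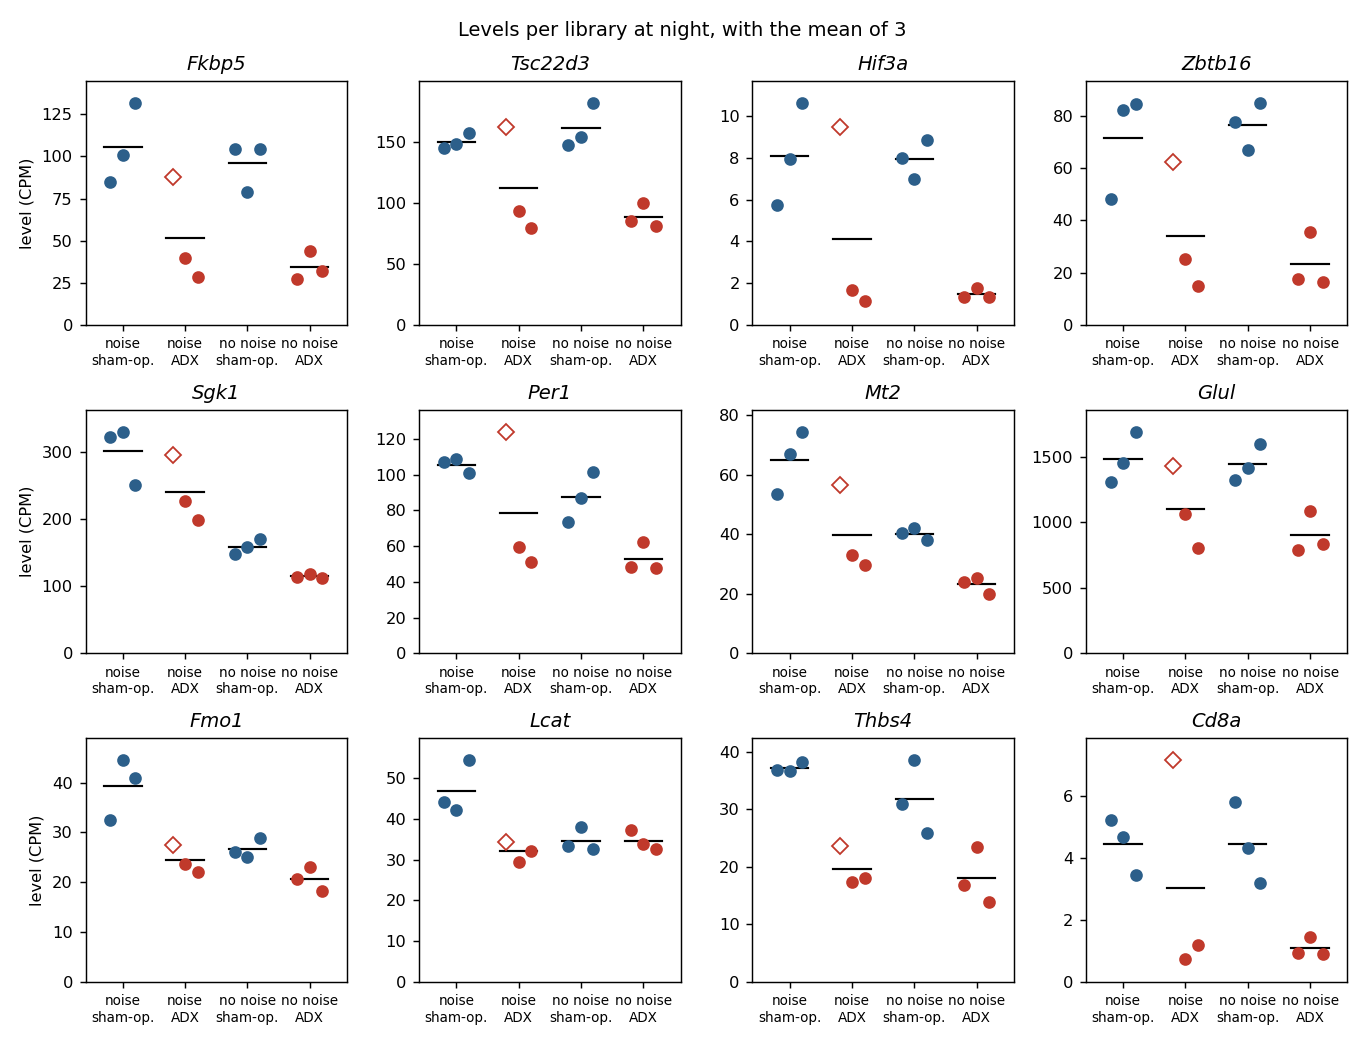
Level of 12 genes in CPM at night in the 3 libraries of each group (noise or no noise, sham-operated in blue or ADX in red), with a bar at the mean of 3 and the library labelled night noise ADX a as an open diamond. For Fkbp5, Tsc22d3, Hif3a, Zbtb16, Per1, Glul and Cd8a the diamond sits within or above the sham-operated values, while for Fmo1, Lcat and Thbs4 it sits with ADX b and c.

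The receptors and enzymes of the pathway showed smaller differences. Of 13 genes of corticosteroid receptors, metabolism and chaperones tested, none was called with all 6 libraries. Fkbp5 alone fell without the library labelled night noise ADX a (0.639% of all genes). The glucocorticoid receptor gene Nr3c1 measured 126, 129 and 121 CPM in sham-operated and 126, 149 and 139 CPM in ADX (log2 change 0.14, SE 0.0711, edgeR adjusted p = 0.621). The mineralocorticoid receptor gene Nr3c2 was higher in all 3 ADX libraries, at 28.4, 32.3 and 39.6 CPM against 25.8, 25.3 and 27.7 CPM, without passing the threshold (log2 change 0.35, SE 0.141, edgeR adjusted p = 0.523). Without the library labelled night noise ADX a its edgeR adjusted p was 0.150. Hsd11b1, which regenerates active glucocorticoid inside cells, was at 27.3 ± 5.59 CPM in ADX and 28.1 ± 1.80 CPM in sham-operated (SD, n = 3).

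A different set of genes was taken from those whose groups did not overlap, with the library labelled night noise ADX a included. Those of smallest p were picked, so their separation was fixed by the choice and is no result. Over all genes, all ADX libraries lay below in 4.98% and above in 4.76%. None of the genes picked passed the threshold with all 6 libraries. Fmo1, a flavin-containing monooxygenase that oxidises drugs and amines (chromosome 1, 162829561 to 162866610), came closest. It measured 32.5, 44.5 and 40.9 CPM in sham-operated and 27.4, 23.6 and 22.1 CPM in ADX, so that every ADX library lay below every sham-operated one. The log2 change was -0.69 (SE 0.113, edgeR adjusted p = 0.0729), limma voom and DESeq2 called it, and without the library labelled night noise ADX a it was -0.78 (edgeR adjusted p = 0.00803), with adjusted p-values of 6.21e-05 to 0.603 under the 11 other alternatives.

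Lcat, the plasma enzyme that esterifies cholesterol on lipoproteins, measured 44.1, 42.1 and 54.5 CPM in sham-operated and 34.4, 29.5 and 32.1 CPM in ADX, a log2 change of -0.55 (SE 0.0980, edgeR adjusted p = 0.110). Thbs4, a matrix glycoprotein of the thrombospondin family, measured 36.7, 36.7 and 38.1 CPM against 23.6, 17.4 and 18.1 CPM, a change of -0.92 (SE 0.184, edgeR adjusted p = 0.161). Lrp4, a coreceptor of agrin and of Wnt inhibitors, lay at 178 to 203 CPM in sham-operated and 143 to 147 CPM in ADX. In each of the 3 genes the groups did not overlap, as the choice required. Tspan4, Marveld1, Chn2 and Ptgis, the prostacyclin synthase, also had all ADX libraries below, with log2 changes of -0.39, -0.23, -0.88 and -0.41. DESeq2 called all 8 of these genes with all 6 libraries. In the fit without the library labelled night noise ADX a, edgeR called Fmo1, Lcat, Thbs4, Lrp4, Tspan4 and Marveld1, and Chn2 and Ptgis missed at adjusted p-values of 0.0513 and 0.0632. Without sham-operated b as well, Fmo1, Lcat and Lrp4 passed, and Thbs4, Tspan4 and Marveld1 did not, at edgeR adjusted p-values of 0.0535, 0.0535 and 0.127.

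Among genes higher in ADX in all 3 libraries, Htatsf1, a splicing-associated factor, measured 97.7, 84.3 and 85.6 CPM in ADX and 73.5, 73.5 and 71.9 CPM in sham-operated (log2 change 0.29, SE 0.0543, edgeR adjusted p = 0.110), and DESeq2 called it. Adamts12, a secreted metalloproteinase, measured 3.50, 5.51 and 7.45 CPM against 2.74, 3.23 and 3.19 CPM, and its change of 0.85 (edgeR adjusted p = 0.298) became 1.09 without the library labelled night noise ADX a (edgeR adjusted p = 0.00809). Gng4, a G-protein subunit, was at 7.26, 2.07 and 2.97 CPM against 1.00 to 1.31 CPM, with its highest value in the library that holds the most pituitary transcripts. Fam114a1, Slc41a3, Tmem209 and Parp12 were higher by 0.33, 0.50, 0.22 and 0.31, and none of them passed with all 6 libraries (edgeR adjusted p = 0.298 for each). Without the library labelled night noise ADX a, Htatsf1, Fam114a1 and Slc41a3 passed as well (edgeR adjusted p = 0.0452, 0.0361 and 0.0355). Gng4, Tmem209 and Parp12 did not.

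Scnn1a and Wnk4, which act in ion transport, fell without the library labelled night noise ADX a. Scnn1a, the alpha subunit of the epithelial sodium channel that aldosterone and glucocorticoid regulate, measured 25, 31.6 and 30.7 CPM in sham-operated, 26.6 CPM in the library labelled night noise ADX a, and 15.4 and 17.6 CPM in ADX b and c. It fell by 0.81 on the log2 scale without that library (SE 0.131, edgeR adjusted p = 0.00803) and was at -0.54 with it (edgeR adjusted p = 0.352). Wnk4, a kinase that controls chloride cotransporters, measured 67.0, 64.4 and 76.7 CPM in sham-operated and 62.0, 50.3 and 46.0 CPM in ADX, with no overlap. Its change was -0.39 with all 6 (edgeR adjusted p = 0.298) and -0.53 without the library labelled night noise ADX a (edgeR adjusted p = 0.0159). Scnn1a and Wnk4 also passed without both that library and sham-operated b (edgeR adjusted p = 0.0268 and 0.0231). Both genes were singled out after their values were seen.

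Of 20 clock genes tested, none was called with all 6 libraries. Per1 and Per2 alone fell without the library labelled night noise ADX a (0.639% of all genes), with 0 higher (0.329%). Per2, a repressor of the clock, measured 101, 134 and 126 CPM in sham-operated and 109, 59.4 and 60.2 CPM in the ADX libraries a, b and c, and fell by 1.00 without the library labelled night noise ADX a (edgeR adjusted p = 0.0391). With all 6 libraries its change was -0.66 (edgeR adjusted p = 0.455), and without sham-operated b as well the call was lost (adjusted p = 0.116). Arntl, the activator also called BMAL1, was higher in all 3 ADX libraries, at 19.5, 19.7 and 18.9 CPM against 15.3, 14.4 and 13.8 CPM. Its change of 0.42 (SE 0.116, edgeR adjusted p = 0.352) did not pass. Npas2, another activator, stood at 6.48 to 8.45 CPM in ADX and 4.38 to 5.57 CPM in sham-operated (log2 change 0.58, edgeR adjusted p = 0.402). Arntl and Npas2 did not pass without the library labelled night noise ADX a either (edgeR adjusted p = 0.140 and 0.116).

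Immediate early genes are induced within minutes to hours of a stimulus, and none of the 28 tested was called. Of these, 27 had a fitted change below 0 (50.0% of all genes), 13 were lower (4.81% of all genes) and 1 higher (3.74%) at an unadjusted p under 0.05, and the median log2 change was -0.39. Without the library labelled night noise ADX a the median was -0.55 and again none was called (0 higher and 0 lower by edgeR, with 20 lower and 1 higher at an unadjusted p under 0.05, against 8.22% and 6.96% of all genes). Fos, which pairs with Jun proteins to form AP-1, measured 122, 115 and 51.1 CPM in sham-operated and 66.7, 63.6 and 25.2 CPM in ADX. The groups overlapped, since sham-operated c was lower than ADX a and b (log2 change -0.89, SE 0.371, edgeR adjusted p = 0.535). Jun did not overlap, at 80.0 to 111 CPM against 69.5 to 79.8 CPM (log2 change -0.40, edgeR adjusted p = 0.388). Ier3, an early response gene of survival signalling, was at 34.1 to 45.9 CPM against 23.3 to 30.7 CPM, with a change of -0.60 (edgeR adjusted p = 0.367). Egr2, a zinc-finger factor also known from myelinating Schwann cells, was the exception, at 31.3, 31.0 and 34.8 CPM in ADX and 25.7, 27.4 and 22.9 CPM in sham-operated. The means over the list, relative to all 24 libraries, were 1.03, 1.03 and 0.54 in sham-operated and 0.79, 0.49 and 0.10 in ADX, so the groups overlapped.

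Inflammatory genes gave few calls. Of 22 NF-kB and acute-phase genes tested, 18 had a fitted change below 0 (50.0% of all genes). At an unadjusted p under 0.05, 7 were lower (4.81% of all genes). The median was -0.18, with no call with or without the library labelled night noise ADX a. Ptgs2, the inducible cyclooxygenase, did not overlap, at 11.1, 11.6 and 11.6 CPM in sham-operated and 7.81, 6.20 and 8.22 CPM in ADX (log2 change -0.62, SE 0.213, edgeR adjusted p = 0.433). Of 19 chemokines and cytokines, Ccl5, a chemokine that attracts T cells, was the 1 called without that library (0.968% of all genes). Its change there was -1.14 (edgeR adjusted p = 0.0192), against -0.86 with all 6 libraries. Ccl5 missed without both that library and sham-operated b (edgeR adjusted p = 0.0569). It measured 6.50 to 7.06 CPM in sham-operated and 2.82 to 4.95 CPM in ADX. Ccl2, a chemokine that draws monocytes, overlapped at 2.38 to 4.42 CPM against 2.40 to 4.28 CPM. Of 28 interferon-stimulated genes, 5 were higher (3.74% of all genes) and 0 lower at an unadjusted p under 0.05, the median was 0.22 and none was called in either fit. Gbp6, a guanylate-binding protein, measured 10.9, 14.4 and 15.3 CPM in ADX and 6.68, 6.32 and 10.9 CPM in sham-operated (log2 change 0.76, edgeR adjusted p = 0.352).

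Of the 4 T cell genes among the lymphoid markers, Cd8a and Cd3e fell without the library labelled night noise ADX a. Cd3d and Cd4 did not pass, at -0.30 and -0.07 (edgeR adjusted p = 0.522 and 0.920). Cd8a, the coreceptor of cytotoxic T cells, measured 5.22, 4.66 and 3.43 CPM in sham-operated, 7.15 CPM in the library labelled night noise ADX a, and 0.738 and 1.2 CPM in ADX b and c. Cd3e, part of the T cell receptor complex, measured 2.03 to 3.25 CPM in sham-operated, 3.89 CPM in that library, and 0.787 and 0.888 CPM in ADX b and c. In both genes the library labelled night noise ADX a was the highest of the 6 and ADX b and c were the lowest. With all 6 libraries the changes were -0.53 and -0.43 (edgeR adjusted p = 0.835 and 0.827), and without that library -2.17 and -1.59 (edgeR adjusted p = 0.0371 and 0.0418). Cd8b1 and Themis, at -0.53 and -0.86 with all 6 libraries, fell by 2.29 and 1.62 in the fit without that library. Both were picked after their values were seen. Without sham-operated b as well none of Cd8a, Cd3e, Cd8b1 and Themis passed, with edgeR adjusted p-values of 0.0569 to 0.0979. Blnk and Dntt, genes of developing B cells, had the opposite sign. Blnk, a signalling adaptor, measured 72.0 and 64.0 CPM in ADX b and c, 49.0 CPM in the library labelled night noise ADX a and 39.1 to 51.5 CPM in sham-operated. It rose by 0.60 without that library (edgeR adjusted p = 0.0371), as did Dntt by 0.74, and both calls were lost without sham-operated b as well (adjusted p = 0.111 and 0.104). Blnk and Dntt changed by 0.46 and 0.45 with all 6 libraries. Of the 16 lymphoid markers tested, 1 rose (0.329% of all genes) and 2 fell (0.639%) without the library labelled night noise ADX a. Without both, 0 rose (0.0239% of all genes) and 0 fell (0.215%).

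The same operation without noise at night was measured in 6 other libraries, 3 a side, which share no library with the night noise groups. There 263 of 16607 genes were called (1.58%), 185 higher in ADX (1.11%) and 78 lower (0.470%). Of the 78 lower genes, 69 (88.5%) also had a fitted change below 0 after night noise, where 50.0% of all genes did. Their median after noise was -0.24, 34 were lower at an unadjusted p under 0.05 (4.81% of all genes) and in 16 all ADX libraries lay below (4.98% of all genes). Of the 185 higher genes, 169 (91.4%) had a change above 0 after night noise (50.0% of all genes), with a median of 0.16. Of the 185, 52 were higher at an unadjusted p under 0.05 (3.74% of all genes) and 25 had all ADX libraries above (4.76% of all genes). Once the library labelled night noise ADX a was left out, 21 of the 78 were called lower after noise, which is 26.9% of the 78 and 19.6% of the 107, where 0.644% of all genes were called lower. The count of higher genes shared was 12, which is 6.49% of the 185 and 21.8% of the 55, where 0.331% of all genes were called higher.

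The 21 genes that fell in both settings include the glucocorticoid targets Fkbp5, Tsc22d3, Hif3a, Zbtb16, Mt2, Glul, Sult1a1 and Plin4. They also include Thbs4, Map3k6, Gsn and Cd3e. Fkbp5 measured 27.5, 43.9 and 32.0 CPM in ADX and 105, 78.9 and 104 CPM in sham-operated at night without noise (log2 change -1.48, edgeR adjusted p = 0.0267). Map3k6, a MAP kinase kinase kinase, was at 4.13 to 5.34 CPM against 8.69 to 10.9 CPM without noise, and at 4.36 to 9.15 CPM against 10.1 to 15.2 CPM after noise, where all ADX libraries lay below. The 12 genes that rose in both include Col27a1, a fibrillar collagen chain, Car3, a carbonic anhydrase of fibrocytes and muscle, Aplnr, the apelin receptor of endothelial cells, and Blnk. The fit without both the library labelled night noise ADX a and sham-operated b called 4 genes higher (0.0239%). Car3 and Blnk did not pass there. As a mean over the 78 lower genes, the library labelled night noise ADX a stood at 0.23 and the sham-operated libraries at 0.21 to 0.40, while ADX b and c stood at -0.13 and -0.27.

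**Figure D5:**
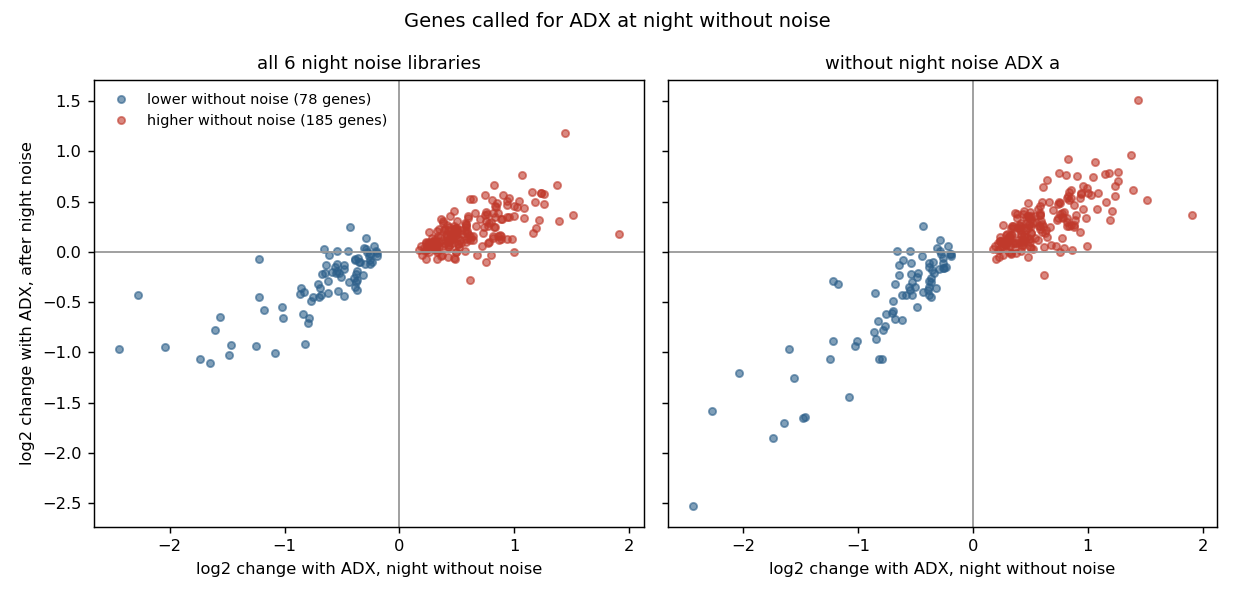
Log2 change with ADX at night without noise (horizontal) against log2 change with ADX after night noise (vertical) for the 263 genes called without noise, with all 6 night noise libraries (left) and without the library labelled ADX a (right). Of the 78 lower genes 69 lie below 0 on the left, and of the 185 higher genes 169 lie above 0.

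Whether noise changed the effect of adrenalectomy at night was tested as the difference between both effects. No gene passed (0 of 16607, 0.00%, edgeR), 1056 (6.36%) had an unadjusted p under 0.05 and DESeq2 called 4. Leaving out the library labelled night noise ADX a, edgeR again called 0. The clock outputs Nr1d1, a repressor that responds to haem, and Dbp, a transcription factor of the liver and other tissues, were among the genes with an unadjusted p under 0.05. Nr1d1 measured 29.2, 44.7 and 52.9 CPM in ADX and 34.3, 41.0 and 41.0 CPM in sham-operated after noise, and 51.6, 39.5 and 46.2 CPM against 22.0, 25 and 22.7 CPM without noise. Its change was 0.12 after noise (edgeR adjusted p = 0.870) and 0.98 without noise (edgeR adjusted p = 0.0108), and the difference of -0.86 did not pass (edgeR adjusted p = 0.749). Dbp gave -0.10 and 0.76, with the same adjusted p of 0.749 for the difference. Tspan4 had an unadjusted p of 2.02e-05 for the difference, with a change of -0.39 after noise and 0.18 without it (edgeR adjusted p = 0.336).

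After day noise, which was given at ZT3, adrenalectomy gave 0 calls of 16607 (0.00%) by edgeR, and by day without noise it gave 7 (0.0422%), 4 higher (0.0241%) and 3 lower (0.0181%). The difference between the effects after night noise and after day noise gave 0 calls as well (0.00%), with 2407 genes (14.5%) at an unadjusted p under 0.05. This count depended on single libraries: 287 genes (1.71%) were called without the library labelled night noise ADX a, 600 without day noise ADX a, and 12 without night noise ADX a and sham-operated b. DESeq2 called 38. The glucocorticoid-induced list had a median change of -0.36 after night noise, 0.10 after day noise, -0.43 at night without noise and -0.32 by day without noise. The immediate early genes had medians of -0.39 after night noise and 0.38 after day noise. For Ier3 the change was -0.60 after night noise and 0.64 after day noise, and the difference of -1.24 missed the threshold (edgeR adjusted p = 0.176).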

How the data were processed

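Polyadenylated RNA of 300 ng inputs was sequenced as 50-base single reads from stranded libraries, per the labels' protocols. The authors deposited raw counts of reads per gene symbol, with no normalization. Per the submitters' processing notes, TopHat2 2.0.11, HTSeq 0.6p1 and the build mm10 were used. The annotation and the strand setting of the counting are not given in the sources used here, so reads of a gene and of its antisense neighbour may not be told apart. The table held 23420 entries, of which 27 are names turned into dates by a spreadsheet (0.214% of counts), kept as unidentified. Positions were taken by symbol from GENCODE vM21 (GRCm38).

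The analysis of the counts used edgeR 4.0.16 under R 4.3.3: filterByExpr on the 8 groups, TMM factors, 1 coefficient per group over all 24 libraries with a robust quasi-likelihood fit (common biological coefficient of variation 0.0991), and two-sided F-tests with Benjamini-Hochberg adjustment at 0.05. CPM values use the TMM factors and log2 values a prior count of 2. No library pair within either of the 2 groups was a repeat (chi-square per gene 11.1 to 41.4). Pairs of an ADX and a sham-operated library were not checked. The script was tested on simulated data. Alternatives were RLE factors, DESeq2 1.42.0, voom of limma 3.58.1, no filter, only the groups compared, a replicate block, and leaving out libraries. A call made without the library labelled night noise ADX a compares 2 libraries with 3.

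Named genes follow a rule: up to 8 a direction with the smallest p whose groups do not overlap, list members with the smallest p, and a fixed set. Further genes were picked once their values were known. The comparison, the 31 gene lists and the alternatives were chosen with earlier results of these data known. Some results are not reported here.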

Additional observations from a re-analysis of the deposited data

How the results depend on the processing

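With all 6 libraries the count of genes called was 0 under RLE factors, without a filter, with only the groups compared and with the replicate block, 15 by DESeq2 (4 higher, 11 lower) and 1 by limma voom. At an unadjusted p under 0.05 the fit of only the groups compared held 850 genes, against 1420 with the spread of all 24 libraries. That fit was not run without the library labelled night noise ADX a. Leaving out 1 library gave 0 to 162 genes called, and leaving out night noise ADX a and sham-operated b gave 40. The difference of effects between noise and no noise at night was 0 in all alternatives but DESeq2 (4). The difference between night and day noise gave 38 by DESeq2, 0 to 600 when 1 library was left out and 12 without night noise ADX a and sham-operated b. The causes of these shifts were not tested.

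Of 90 named genes, all kept direction and call under RLE factors, no filter, the block and the fit of only the groups compared. Without the library labelled night noise ADX a, 59 came past the threshold. Ccl7 changed sign, from -0.07 to 0.020 by limma voom and 0.30 without night noise ADX a and sham-operated b, and between -0.40 and 0.29 with 1 library left out. Ccl2 (-0.15 to 0.29), Hsd11b1 (-0.16 to 0.12) and Nr1d1 (-0.070 to 0.34) changed sign with 1 library left out.

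The replicate block joined libraries of the same letter and gave 0 calls (1393 at an unadjusted p under 0.05, against 1420). Deviations of same-letter libraries correlated at 0.03, -0.14 and 0.19, and those of different letters at -0.27 to 0.21. The labels used here do not say what the letters mean. With 3 libraries a group, these correlations cannot decide whether the letters pair samples.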

Other observations

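Marker lists of other cell types gave no call with all 6 libraries. All 16 neutrophil and myeloid marrow markers tested had a fitted change below 0 (50.0% of all genes), with a median of -0.11. At an unadjusted p under 0.05, 4 were lower (4.81% of all genes). Means over this list, relative to all 24 libraries, were 0.20, 0.11 and -0.12 in sham-operated and 0.05, -0.09 and -0.36 in ADX, so the groups overlapped. Cxcr2, the chemokine receptor of mature neutrophils, was the member with the smallest p. All 16 heat-shock and chaperone genes also had a fitted change below 0 (50.0% of all genes, median -0.18), none at an unadjusted p under 0.05. Their means relative to all 24 libraries were 0.20, 0.38 and 0.21 in sham-operated a, b and c and 0.20, -0.03 and -0.18 in ADX a, b and c. The library labelled night noise ADX a stood inside the range of the sham-operated libraries, at its low end.

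Th, tyrosine hydroxylase, the enzyme that starts catecholamine synthesis, measured 1.02, 1.35 and 1.25 CPM in sham-operated and 0.785, 0.344 and 0.463 CPM in ADX after night noise, with no overlap (log2 change -1.15, SE 0.369, edgeR adjusted p = 0.409). Adra2a, an adrenergic receptor, measured 19.8, 23.5 and 24.3 CPM against 19.0, 17.4 and 15.6 CPM, also with no overlap (log2 change -0.38, edgeR adjusted p = 0.433). Of 12 adrenergic and noradrenaline genes tested, 10 had a fitted change below 0 (50.0% of all genes), with a median of -0.37. None was called with or without the library labelled night noise ADX a.

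Phex and Col27a1 rose without that library, and were picked after their values were seen. Phex, an endopeptidase of bone-forming cells, measured 198 and 193 CPM in ADX b and c, 93.2 CPM in the library labelled night noise ADX a, and 121 to 152 CPM in sham-operated. It rose by 0.54 without that library (edgeR adjusted p = 0.00809), and was at 0.26 with it (edgeR adjusted p = 0.706). Col27a1 measured 210.0 and 299.9 CPM in ADX b and c, 165 CPM in the library labelled night noise ADX a and 151 to 159.8 CPM in sham-operated. Its log2 change was 0.53 with all 6 libraries and 0.71 without that library (edgeR adjusted p = 0.0220). Of 18 bone markers tested, 1 rose without that library (0.329% of all genes) and 12 had a fitted change below 0 (49.9% of all genes, median -0.21). Without sham-operated b as well, 1 of the 18 rose (0.0239% of all genes). None of the 16 fibrillar collagen and matrix genes listed was called. The matrix genes Podn, Comp, Mgp, Matn2 and Thbs4 fell by 0.86, 0.87, 0.76, 0.74 and 1.07 on the log2 scale without the library labelled night noise ADX a. With all 6 libraries their changes were -0.55, -0.70, -0.56, -0.49 and -0.92. Other matrix genes rose without that library, among them Fbn1, Col16a1 and Col24a1, by 0.46, 0.44 and 0.57, against 0.28 for each with all 6. Apart from Thbs4, these genes were picked after their values were seen, so they give no direction for matrix genes as a set.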
